A study of Homo sapiens with 13 samples.

Results

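The 4 HOX clusters were described here through the peaks that lay in them, in chromatin immunoprecipitation with sequencing (ChIP-seq) of the established cell line H1 (WA01), which is pluripotent and was derived from a human embryo. A peak was taken when it overlapped one of 4 hg19 windows by at least 1 bp: HOXA at chromosome 7, 27124944 to 27270287, HOXB at chromosome 17, 46594193 to 46810000, HOXC at chromosome 12, 54313970 to 54460857, and HOXD at chromosome 2, 176928137 to 177060531. The windows span 640 kb and stand for 38 HOX genes, 10 each in HOXA and HOXB and 9 each in HOXC and HOXD. They held 164 of the 136141 peaks in the 7 lists.

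Wild-type cells (WT) were compared with the homozygous knockout line 1-10 (KO), in which Cas9 had removed the zinc finger transcription factor ZNF263, for the histone marks H3K4me3, H3K27ac and H3K27me3. A further list came from a FLAG antibody in KO cells that carried ectopic FLAG-tagged ZNF263, and its members are called FLAG peaks. KO is a single line, and how much tagged protein it made is not stated in the labels. Each arm held 1 library, so no difference between genotypes has a replicate check and none was tested. The 2 libraries of endogenous ZNF263 in WT cells carry labels that point to the FLAG list, and peaks of their own were not analysed here.

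HOX genes encode homeodomain transcription factors that give cells their position along the head to tail axis. In each cluster the genes stand in the order in which they act along the body, from genes of the hindbrain at one end to genes of the limbs, tail and urogenital tract at the other. In pluripotent cells the clusters are known as domains of Polycomb, the complex whose EZH2 subunit places H3K27me3, and their promoters often carry H3K4me3 as well, a state called bivalent. H3K27ac marks active promoters and enhancers.

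In the RefSeq gene table all 38 genes were found. Along the chromosome, HOXA runs from HOXA2, which patterns the hindbrain and the branchial arches, to HOXA13, a gene of digits and the genital tubercle. HOXB runs from HOXB1, a hindbrain gene, through HOXB9 to HOXB13, known for its role in the prostate. HOXC and HOXD run the other way, from HOXC13, a gene of hair follicles, to HOXC4, and from HOXD13, a gene of digits, to HOXD1. That table belongs to GRCh38, so it served for names and order only, and no peak was placed at a gene.

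Polycomb domains of vertebrates form mostly over CpG-rich DNA, so the letters of HOX promoters are shown first, as the 250 bases before the start in RefSeq's GRCh38.p14 table. It held 27 starts of 20 of the 38 genes, at 26 distinct positions, because the start shared by HOXC4 and HOXC5 was counted for each gene. The median number of CpG dinucleotides was 19 for these starts and 11 over all 35116 promoters of the table. HOXA13 had the most among the HOX starts, 40, and HOXD1 had 31. HOXA2 had 8, HOXB1 had 7 and HOXD4, a gene of the hindbrain and neck vertebrae, had 4, while 1 alternative start of HOXA3 had 0. The 3 sequences below show CpG-rich promoters and a CpG-poor one, with each CpG in capitals. HOXA13 is at chr7:27200092-27200341 (minus strand), HOXD1 at chr2:176188418-176188667 (plus strand) and HOXD4 at chr2:176151300-176151549 (plus strand), all in GRCh38.p14, and these positions cannot be set beside the hg19 peaks.
HOXA13: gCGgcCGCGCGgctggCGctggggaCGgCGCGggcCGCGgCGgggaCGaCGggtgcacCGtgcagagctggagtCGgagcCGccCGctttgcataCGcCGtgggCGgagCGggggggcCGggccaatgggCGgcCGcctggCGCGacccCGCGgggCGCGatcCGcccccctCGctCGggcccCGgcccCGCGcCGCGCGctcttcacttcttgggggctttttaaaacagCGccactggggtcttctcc
HOXD1: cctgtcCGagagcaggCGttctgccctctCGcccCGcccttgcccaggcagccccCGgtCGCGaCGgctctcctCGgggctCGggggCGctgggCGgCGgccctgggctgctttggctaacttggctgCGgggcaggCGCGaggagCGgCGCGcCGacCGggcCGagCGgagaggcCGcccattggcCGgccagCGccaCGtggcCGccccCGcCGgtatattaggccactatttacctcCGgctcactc
HOXD4: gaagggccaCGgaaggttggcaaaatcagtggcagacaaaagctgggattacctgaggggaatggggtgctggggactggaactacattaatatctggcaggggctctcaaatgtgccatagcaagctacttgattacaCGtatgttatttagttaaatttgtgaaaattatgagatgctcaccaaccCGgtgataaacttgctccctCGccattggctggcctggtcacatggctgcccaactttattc

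ZNF263 is known to favour G-rich DNA with repeats of GGGAGGA, so the same 250 bases were searched for these letters on both strands. Of the 27 HOX starts, 5 held a match (18.5%), against 16.0% of all promoters, a share near the background. All 5 belonged to HOXA genes, 4 to alternative starts of HOXA3 and 1 to HOXA4. The table is uneven, however, with 16 HOXA starts (7 of them of HOXA3), 8 HOXD, 2 HOXC (the same position) and 1 HOXB. The CpG median above is therefore also mostly that of HOXA, and the clusters cannot be compared. The HOXA4 promoter, at chr7:27130758-27131007 (GRCh38.p14, minus strand), is shown because it held 2 matches, in capitals, as 1 start of HOXA3 also did. A match is a description of these letters and does not show binding.
HOXA4: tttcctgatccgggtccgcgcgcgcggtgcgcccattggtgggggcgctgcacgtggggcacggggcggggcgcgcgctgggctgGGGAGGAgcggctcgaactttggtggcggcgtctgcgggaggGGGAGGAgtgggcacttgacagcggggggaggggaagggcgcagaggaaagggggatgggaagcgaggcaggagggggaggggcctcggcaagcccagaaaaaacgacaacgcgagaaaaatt

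H3K27me3 covered nearly all of HOXA, HOXC and HOXD in both genotypes, and HOXB with gaps. Both edges of the HOXA, HOXC and HOXD windows, and the start of the HOXB window, are the edges of WT H3K27me3 peaks, so the WT extent is fixed by how the windows were drawn. The KO extent is not, although bases that KO gained beyond those edges fall outside the windows. In WT, 1 peak filled each of HOXA (145344 bp), HOXC (146888 bp) and HOXD (132395 bp), and a peak of 134549 bp opened HOXB. These were the 4 widest of the 11906 WT H3K27me3 peaks, and the next outside the windows was 85265 bp. The KO list gave the same order: HOXC at 145332 bp, HOXA at 144444 bp, HOXB at 135189 bp and HOXD at 132760 bp were the 4 widest of 10375 peaks. Each of these peaks had a score of 3100, so the score does not rank them.

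KO edges differed from WT edges by small distances. At HOXD the KO peak began at 176927861, just before the window, and ended 89 bp after it. At HOXA it began 946 bp inside the window and ended 46 bp beyond it. HOXC was the only cluster of these 3 that was split in KO, into a peak at 54310649 to 54314289 (3641 bp, score 259) and the main peak from 54315557 to 54460888, with 1267 bp between them. H3K27me3 covered 99.3% of the HOXA window, 99.1% of HOXC and 100% of HOXD in KO, but 78.5% of HOXB, where the WT share was 80.7%.

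HOXB was the cluster with gaps. Beyond its first peak, which ended at 46728741 in WT and 46728851 in KO, both genotypes had small islands and then a further wide peak. The WT islands lay at 46733572 to 46736150 (score 106), 46737037 to 46738192 (score 53.4), 46746109 to 46747677 (score 66.4), 46748004 to 46751469 (score 121) and 46751729 to 46757024 (score 893). KO had 3 islands, at 46735813 to 46737238 (score 42.6), 46746883 to 46751304 (score 225) and 46751935 to 46757014 (score 661). A stretch of 27.5 kb in WT and 29.2 kb in KO, ending at 46784491 and 46786180, had no H3K27me3 peak. The last wide peak ran from 46787230 to 46842423 in WT, with a peak at 46784492 to 46787225 (score 92.7) in front of it, and from 46786181 to 46844790 in KO. It passed the end of the window in both genotypes.

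Over the 4 windows H3K27me3 covered 598.7 kb in WT (93.5%) and 591.8 kb in KO (92.4%). Of the bases covered in either genotype, 98.4% were covered in both, where the same share was 77.9% over the whole lists. WT alone covered 8252 bp, of which 6039 bp lay in HOXB, and KO alone covered 1326 bp, all in HOXB. A WT peak filled the HOXA, HOXC and HOXD windows, so KO could add no bases there. The share of 98.4% is therefore set in part by the windows. None of the 11 WT peaks (whole list 21.6%) and none of the 9 KO peaks (whole list 11.0%) lacked a peak of the other genotype. Peaks of the whole lists had a median width of only 3081 bp in WT and 3454 bp in KO. Other wide domains were not set beside these H3K27me3 shares, so a trait particular to HOX cannot be read from them.

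**Figure D1:**
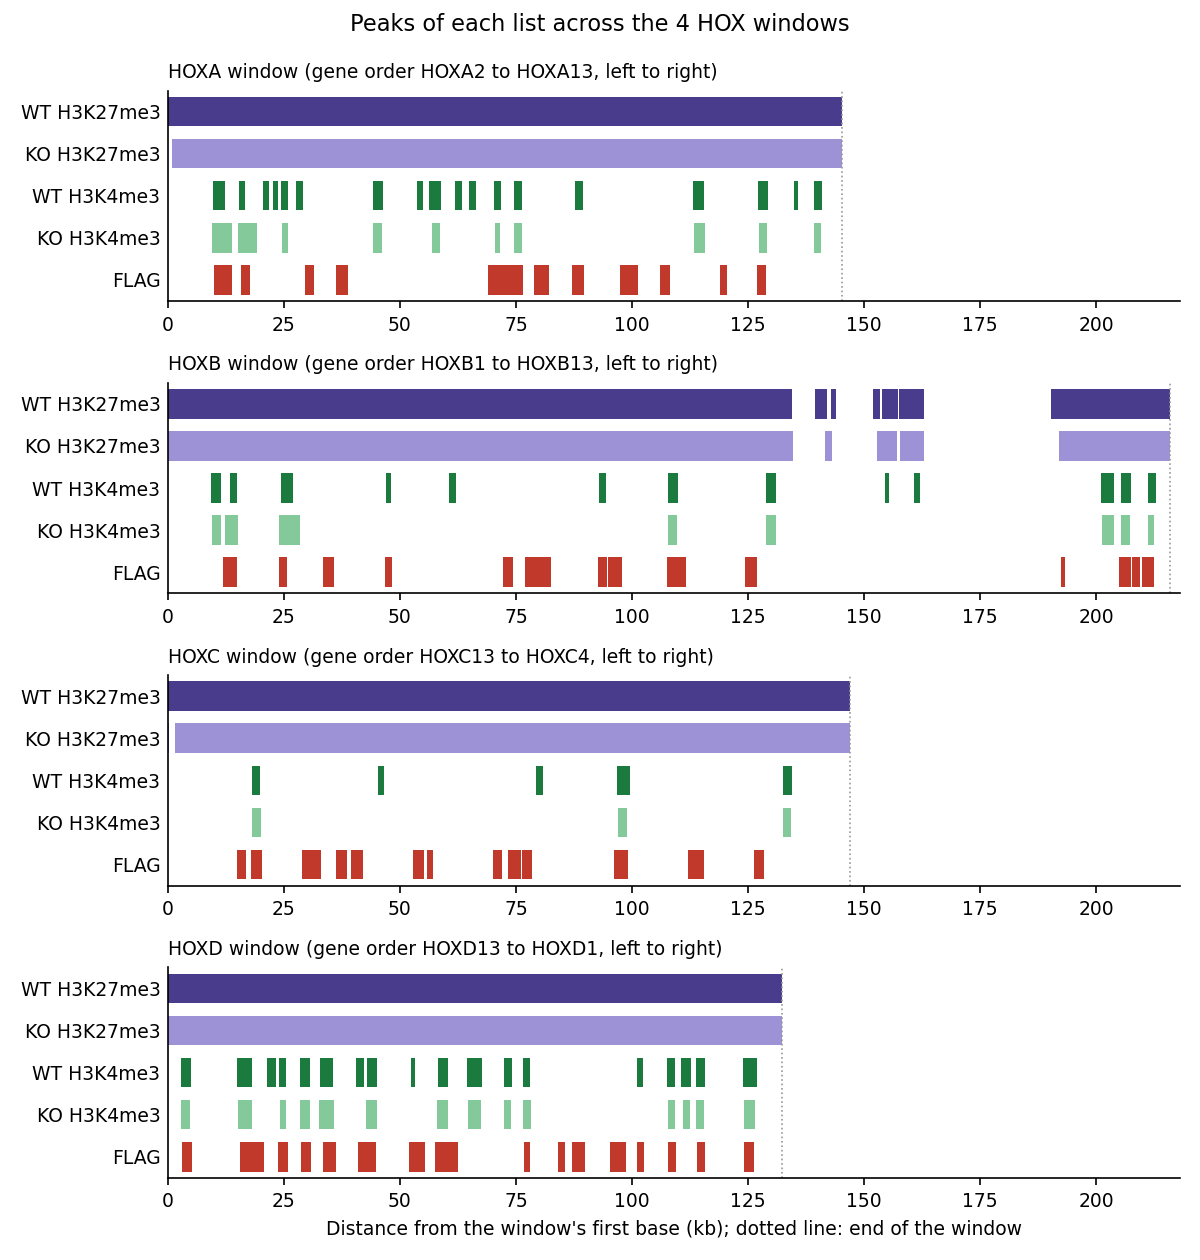
Peaks of 5 lists in each HOX window, by distance in kb from the first base of the window. H3K27me3 (purple) fills the windows in both genotypes apart from gaps in HOXB, and each KO H3K4me3 peak (light green) stands below a WT one (dark green). FLAG peaks (red) lie both on and between H3K4me3 peaks.

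No H3K27ac peak lay in any of the 4 windows, in WT or in KO. This was not particular to the HOX windows. The 12 WT H3K27me3 peaks of 50 kb or more outside them held 1 WT and 0 KO H3K27ac peaks. The nearest WT H3K27ac peak was 134 kb from HOXA, 83.5 kb from HOXB, 189.5 kb from HOXC and 73.0 kb from HOXD. In KO the distances were 135 kb, 83.5 kb, 189 kb and 73.1 kb, and each of these peaks overlapped one of the other genotype. Depth is unknown because the lists hold no read counts, so H3K27ac below the caller's threshold cannot be told from none.

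H3K4me3 formed short islands inside the H3K27me3 domains, and KO had fewer of them in every cluster. HOXA had 18 peaks in WT and 10 in KO, HOXB 13 and 8, HOXC 6 and 3, and HOXD 18 and 14. The sum was 55 in WT and 35 in KO, a change of -36.4%, against -5.35% over the whole lists. Covered bases fell less than peak numbers, from 99.8 kb in WT to 77.2 kb in KO. All 55 and all 35 overlapped H3K27me3 of their own genotype, as 33.4% of WT and 30.7% of KO H3K4me3 peaks did in the whole lists. In HOXA, HOXC and HOXD a WT H3K27me3 peak fills the window, so there the WT value follows from the choice of region. In HOXB, where WT H3K27me3 covered 80.7% of the window, all 13 WT peaks also lay on it.

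Clusters differed in how densely H3K4me3 was placed. HOXD had 1.36 WT peaks per 10 kb and HOXA 1.24, while HOXB had 0.602 and HOXC 0.408. In KO these densities were 1.06, 0.688, 0.371 and 0.204, in the same order. H3K4me3 covered 27.8% of HOXD in WT and 22.4% in KO, and 6.27% and 3.92% of HOXC.

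The whole difference in number came from WT peaks that had no KO peak. Of the 55 WT peaks 20 (36.4%, Wilson 95% interval 24.9 to 49.6) were without a KO counterpart, against 12.3% in the whole WT list. On WT H3K27me3 peaks of 50 kb or more outside the windows it was 11 of 62 (17.7%, 10.2 to 29.0), and this interval overlaps that of HOX. Among all 9528 WT peaks on WT H3K27me3 outside the windows it was 4.46%. None of the 35 KO peaks was without a WT counterpart, against 7.30% in the whole KO list. This was not particular to the HOX windows. Outside them, 0 of 47 KO peaks on WT H3K27me3 peaks of 50 kb or more were without a WT counterpart. Among all KO peaks on KO H3K27me3 outside the windows it was 1.52%. Each of the 35 KO peaks overlapped exactly 1 WT peak and the reverse. The interval covers the counting of peaks only, and neighbouring peaks of 1 cluster are not independent of each other.

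**Figure D2:**
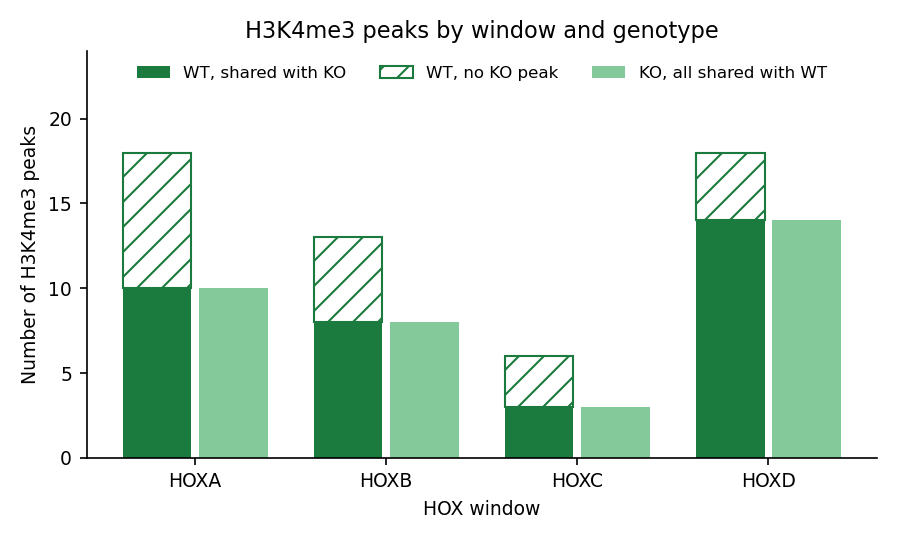
Number of H3K4me3 peaks (vertical axis) in each HOX window, for WT (dark, hatched where no KO peak overlapped) and KO (light). The hatched parts are 8, 5, 3 and 4 peaks for HOXA, HOXB, HOXC and HOXD, and the solid WT bars equal the KO bars.

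In HOXA the 8 WT-only H3K4me3 peaks had scores from 50.7 to 97.9. A group of 3 lay toward the HOXA2 end of the window, at 27145532 to 27146743 (score 84.7), 27147515 to 27148644 (score 52.2) and 27152601 to 27153982 (score 97.9), around a shared peak at 27149382 to 27150872. The first of them was 1458 bp from a KO peak that ended at 27144074 and is described with the widths. Another 3 lay at 27178693 to 27179822 (score 70.1), 27186780 to 27188301 (score 57.8) and 27189834 to 27191409 (score 50.7), and stood around the shared peak at 27181262 to 27183737. The last pair was 27212575 to 27214330 (score 56.7), with a FLAG peak, and 27259826 to 27260632 (score 82.4), 807 bp wide.

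In HOXB the 5 WT-only peaks were farther from any KO peak, by 13402 bp to 32060 bp. Those at 46641239 to 46642354 (score 158) and 46687186 to 46688584 (score 65.0) each held a FLAG peak. The peak at 46654805 to 46656236 (score 90.2) did not. The remaining pair, at 46748687 to 46749608 (score 126) and 46754979 to 46756299 (score 77.8), sat on the H3K27me3 islands between the wide peaks, and these islands had H3K27me3 in KO too. No H3K4me3 peak was left on the islands in KO.

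In HOXC 3 of the 6 WT peaks were WT-only. The WT-only peaks at 54359275 to 54360451 (score 57.4) and 54393341 to 54394845 (score 114) were 25244 bp and 16043 bp from the nearest KO peak. The remaining one, at 54412961 to 54413556 (score 87.4), was 596 bp wide, overlapped a FLAG peak and lay 84 bp from a KO peak. The KO list had 3 widely spaced peaks, at 54332014 to 54334031, 54410888 to 54412877 and 54446455 to 54448209.

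HOXD had the smallest share of WT-only peaks, 4 of 18. They lay at 176949568 to 176951386 (score 165), 176968784 to 176970299 (score 108), 176980552 to 176981489 (score 83.04) and 177029214 to 177030591 (score 91.9). The last 3 of these held FLAG peaks. The first pair were 838 bp and 559 bp from a KO peak.

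WT-only HOX peaks had low scores. Their median score was 83.9, against 310 for the 35 shared WT peaks, and the highest was 165. Over all WT H3K4me3 peaks, those without a KO counterpart had a median of 71.5 and shared ones 2941, so shared HOX peaks also scored below the median of shared peaks. None of the 55 reached a score of 3100, as 42.9% of all WT H3K4me3 peaks did. The strongest, at 27134740 to 27137285 in HOXA (score 1540), still lay below the median of its list, 1925.

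Low scores go with missing counterparts anywhere in the genome, so WT peaks were also set side by side by score class. Under a score of 100, 15 of 17 HOX peaks were WT-only (88.2%, 65.7 to 96.7), and 54.8% of 4956 peaks in the whole list were. From 100 to under 200 it was 5 of 11 HOX peaks (45.5%, 21.3 to 72.0) and 21.2% of the list. At 200 or more it was 0 of 27 HOX peaks and 0.688% of the list. The closest regions for comparison were the 12 WT H3K27me3 peaks of 50 kb or more outside the windows, which held 62 WT and 47 KO H3K4me3 peaks (-24.2%). There 5 of 8 peaks under 100 were WT-only (62.5%, 30.6 to 86.3), 5 of 13 from 100 to under 200 (38.5%, 17.7 to 64.5) and 1 of 41 above. The HOX intervals overlap those of these other wide domains in each class. Under 100, the HOX interval lies above that of the whole list (53.4 to 56.2).

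**Figure D3:**
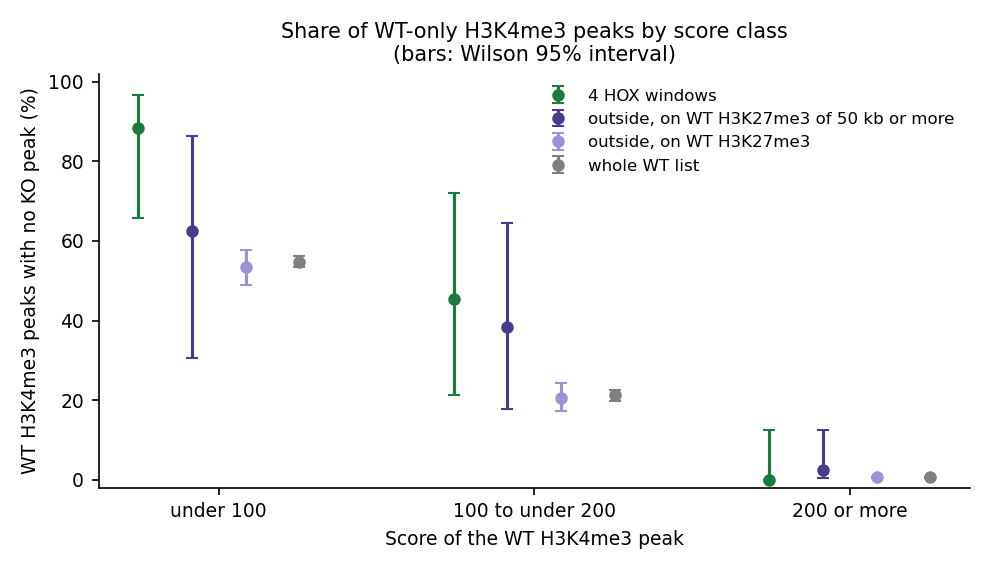
Percent of WT H3K4me3 peaks with no KO peak (vertical axis) by score class of the WT peak, for the 4 HOX windows, for H3K27me3 domains outside them and for the whole WT list. Bars are Wilson 95% intervals. HOX peaks stand at 88.2%, 45.5% and 0%, and their intervals overlap those of other H3K27me3 peaks of 50 kb or more.

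Shared H3K4me3 peaks mostly kept their width. Over the 35 pairs the KO to WT width ratio had a median of 0.956 and ranged from 0.725 to 2.94, and 12 were wider in KO. The median over 24423 pairs of the whole lists was 0.989. Among the 3 widest peaks of each window, HOXD had WT peaks of 3288 bp (176992584 to 176995871), 3065 bp (176943147 to 176946211) and 2910 bp (177052095 to 177055004). Their KO counterparts measured 2664 bp, 3070 bp and 2343 bp. The widest in KO HOXD were 176960817 to 176963966 (3150 bp), the peak of 3070 bp and that of 2664 bp. In HOXC the 3 widest WT peaks, of 2082 bp, 1963 bp and 1886 bp, had KO counterparts of 1990 bp, 1755 bp and 2018 bp.

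The exceptions lay at the end of the HOXA and HOXB windows where the hindbrain genes HOXA2 and HOXB1 come first in order. In HOXA the WT peak at 27134740 to 27137285 (2546 bp) faced a KO peak at 27134559 to 27138880 (4322 bp). Its neighbour at 27140254 to 27141643 (1390 bp) faced one at 27139990 to 27144074 (4085 bp). In HOXB the peak at 46607620 to 46609065 (1446 bp) faced 46606418 to 46609404 (2987 bp), and that at 46618487 to 46621170 (2684 bp) faced 46618050 to 46622745 (4696 bp). The ratios were 1.70, 2.94, 2.07 and 1.75. These 4 of 35 pairs (11.4%) were at least 1.5 times wider in KO, a limit chosen after seeing them, against 0.827% of pairs in the whole lists and 1.35% of those with a WT peak under 3 kb. All 4 WT peaks had their centre in the first 12% of their window and overlapped a FLAG peak, as 23 of the 35 paired WT peaks did. The peak nearest the HOXB1 end, at 46603556 to 46605624, was not among them: it had a ratio of 0.924 and no FLAG peak.

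Place in the order by score differed between the lists at 3 of the 4. The HOXB peak at 46618487 to 46621170 had a score of 251 in WT, the fourth of 13 in the window, whose highest was 310. In KO its counterpart had a score of 1055 and stood first of 8, with the next at 261. The HOXB peak at 46607620 to 46609065 was 10th of 13 in WT, the lowest of the 8 shared peaks, and its counterpart was 4th of 8 in KO. In HOXA the peak at 27140254 to 27141643 was 14th of 18 in WT, the lowest of the 10 shared peaks, and 8th of 10 in KO, while that at 27134740 to 27137285 was first in both. The other wide HOXB peaks were those of 2780 bp (46795251 to 46798030) and 2306 bp (46701903 to 46704208) in WT, with counterparts of 2680 bp and 1802 bp. In HOXA they were those of 2476 bp (27181262 to 27183737) and 2388 bp (27238160 to 27240547), with counterparts of 1878 bp and 2427 bp. At the HOXD1 end of HOXD, the peak at 177052095 to 177055004 was narrower in KO, at a ratio of 0.805.

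**Figure D4:**
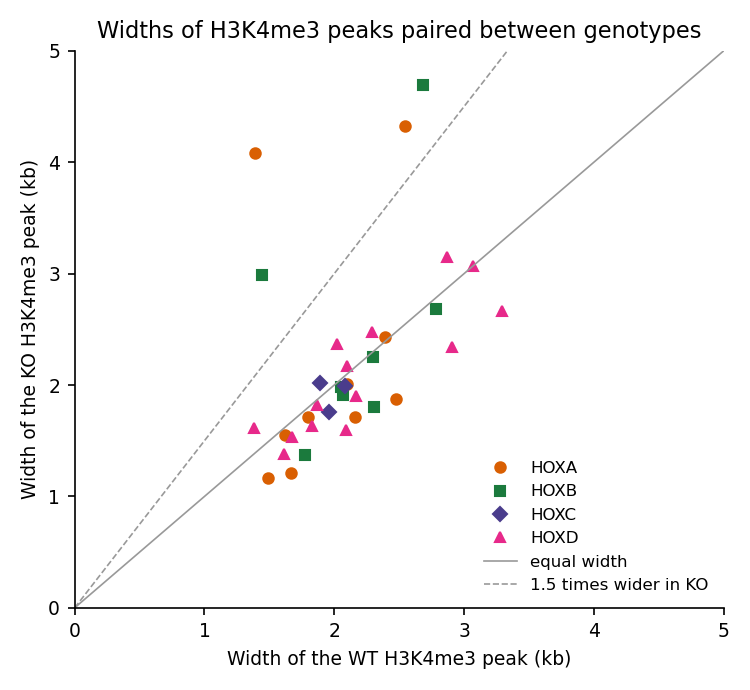
Width in kb of each of the 35 H3K4me3 peaks paired between genotypes, WT on the horizontal and KO on the vertical axis, by window. Of these pairs 4, from HOXA and HOXB, lie above the dashed line of 1.5 times wider in KO, and the others lie near the line of equal width.

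FLAG peaks were spread through all 4 clusters, with 11 in HOXA, 14 in HOXB, 13 in HOXC and 16 in HOXD. They covered 144 kb of the windows. All 54 overlapped H3K27me3 in WT and in KO, where 28.1% of the 22966 FLAG peaks overlapped a WT H3K27me3 peak. For WT this again follows from where the windows lie in HOXA, HOXC and HOXD. In HOXB, which had gaps, all 14 lay on WT H3K27me3 too. Their median score of 88.3 was close to that of the whole list, 86.7. Peak numbers in the FLAG list ran on with 0 missing inside each window.

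The FLAG peaks with the largest scores were as follows in HOXA: 27134823 to 27138840 (score 290.5), 27231044 to 27233186 (score 170) and 27193834 to 27201566 (score 160). The first was the highest-scoring of all 54 and overlapped a HOXA H3K4me3 peak that is described above as wider in KO. The third was 7733 bp wide and held 2 shared H3K4me3 peaks. In HOXB they were 46701727 to 46705766 (score 270), 46689021 to 46692097 (score 232) and 46686940 to 46688816 (score 193). The last of these lay on a WT-only H3K4me3 peak.

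In HOXC they were 54331828 to 54334188 (score 176), 54342781 to 54346913 (score 140) and 54353444 to 54355988 (score 116), of which the first alone lay on H3K4me3. In HOXD they were 177023410 to 177026748 (score 239), which lay off H3K4me3, and 176931218 to 176933417 (score 219) and 176985795 to 176990715 (score 217), both on H3K4me3 of both genotypes.

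FLAG peaks lay both on H3K4me3 islands and between them. Of the 54, 27 were on a WT H3K4me3 peak (50%, Wilson 37.1 to 62.9), and the share in the whole FLAG list was also 50%. On KO H3K4me3 it was 22 (40.7%, 28.7 to 54.0), against 48.9% of the list. Among the 6391 FLAG peaks on WT H3K27me3 outside the windows, 92.7% were on WT H3K4me3. On the 12 other H3K27me3 peaks of 50 kb or more it was 39 of 49 (79.6%, 66.4 to 88.5), an interval that lies above that of the HOX windows. The pooled HOX share mixes unlike clusters, from 15.4% in HOXC to 81.3% in HOXD. For KO H3K4me3 it was 33 of 49 (67.3%, 53.4 to 78.8), which overlaps the HOX interval.

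Clusters differed here too. HOXD had 13 of 16 FLAG peaks on WT H3K4me3, HOXB 7 of 14, HOXA 5 of 11 and HOXC 2 of 13. The Wilson intervals of HOXD (57.0 to 93.4) and HOXC (4.33 to 42.2) did not overlap. They are the highest and lowest clusters, picked after the values were seen. Neighbouring FLAG peaks of 1 cluster are not independent of each other, so these intervals cover the counting of peaks only. HOXC also had the lowest and HOXD the highest density of H3K4me3 peaks. FLAG peaks themselves were about as dense in HOXC (0.885 per 10 kb) as in HOXA (0.757) and HOXB (0.649), with 1.21 in HOXD.

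By both genotypes together, 22 FLAG peaks lay on H3K4me3 in WT and KO, 5 on WT H3K4me3 alone, 0 on KO H3K4me3 alone and 27 on neither. Their median scores were 116, 101 and 73.8 for the classes with peaks. Seen from H3K4me3, 7 of the 30 WT peaks with a FLAG peak were WT-only (23.3%, 11.8 to 40.9), and 13 of the 25 without one (52.0%, 33.5 to 70.0). In the whole WT list these shares were 3.27% with and 18.2% without a FLAG peak. The HOX intervals with and without a FLAG peak overlap. These shares were not split by score class, although low scores go with missing counterparts, so the part that score has in them was not tested.

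**Figure D5:**
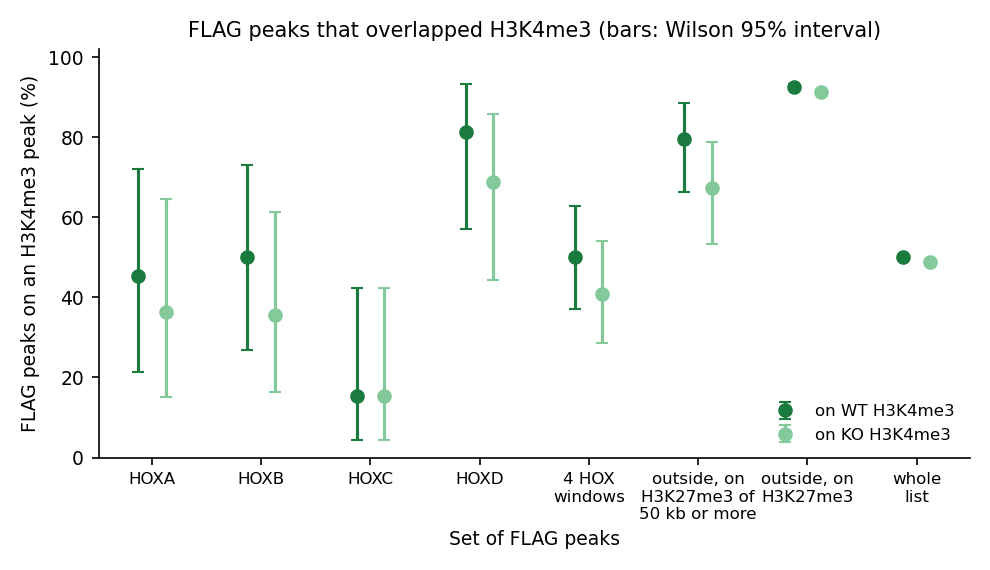
Percent of FLAG peaks that overlapped an H3K4me3 peak of WT (dark) or KO (light), for each HOX window, the 4 together and 3 sets outside them. Bars are Wilson 95% intervals. HOXC is lowest at 15.4%, HOXD highest of the clusters at 81.3% in WT, and FLAG peaks on H3K27me3 outside the windows stand at 92.7%.

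A limit of the H3K4me3 results is the strength of these peaks. When only peaks at or above the median score of their list were kept, 0 WT and 0 KO H3K4me3 peaks were left in the windows, so the results on H3K4me3 rest on peaks below the median score.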

How the data were processed

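The submitters' processing notes name Bowtie2 and Picard without versions, and hg19 as the build. The 7 deposited peak lists have no header and hold the position and name of each peak and then a score. Peak names begin with MACS, per the peak lists themselves. No source used here gives the caller's version or control, or says whether libraries were pooled. The H3K27ac and H3K27me3 lists carry a p-value tag in their names that the H3K4me3 and FLAG lists lack. The lowest WT scores were 40 for H3K27ac and H3K27me3 and 50 for H3K4me3, and 50 for FLAG. Calling thresholds may therefore differ between marks. The score is the authors' value for each peak, its scale is not stated, and it was used only within a list.

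Groups were taken from the sample titles. Peaks were assigned to the 4 windows and to each other by an overlap of at least 1 bp, in python 3.11.15. Wilson 95% intervals came from scipy 1.17.1 and plots from matplotlib 3.10.9. The overlap step was tested on simulated data made from 814 WT H3K27ac peaks of chromosome 19, and 0 differed from a direct count. Members, lists and alternatives were chosen with earlier results of these data known. Named peaks were every H3K27me3 peak and every peak exclusive to 1 genotype, the 3 widest H3K4me3 peaks and the 3 highest-scoring FLAG peaks, in each window and list. The score classes, the width ratio of 1.5 and the printed promoters were chosen after the values were seen. An hg19 annotation was not used here, so no peak was assigned to a gene, and the marks at HOX cofactor, Polycomb and pluripotency genes were not analysed here.

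Alternatives were peaks at or above the median score of a list, lists cut to the same length, merging across gaps of up to 3 kb, windows widened by 50 kb, peaks wholly inside a window, an overlap of 50% of the smaller peak, and a distance of up to 1 kb accepted as shared.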

Additional observations from a re-analysis of the deposited data

How the results depend on the processing

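Of 99 alternative values for 27 results, 82 stayed within 1.5 times the reported value (for shares of FLAG peaks, within the Wilson interval) and 17 moved. Some of the 82 say little about robustness. Every H3K27ac value was 0 under each alternative. Cutting lists to the same length left the shorter list of each mark and the FLAG list as they were. The number of FLAG peaks entered the tally more than once. Keeping peaks at or above the median score shortens the lists by construction. It left 0 H3K4me3 peaks, 0% of the windows and 0 kb under both marks in WT and in KO, 0 WT-only H3K4me3 peaks, 6 WT H3K27me3 peaks and 27 FLAG peaks, which covered 12.9% of the windows and lay on H3K4me3 in 0% of cases. Merging peaks up to 3 kb apart gave 7 WT H3K27me3 peaks, and 3 KO H3K27me3 peaks lay wholly inside a window. With an overlap of 50% of the smaller peak, 3 WT H3K27me3 peaks and 1 KO peak had no counterpart. WT-only H3K4me3 peaks numbered 15 in lists of equal length and 16 with a distance of up to 1 kb accepted as shared, and KO-only ones 0 under each alternative run. No paired analysis was possible because each arm held 1 library and the titles number only the endogenous ZNF263 replicates. Depth is unknown, so the part that library depth has in the lower number of KO H3K4me3 peaks was not tested.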
